A study of Homo sapiens with 104 samples.

Results

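The 50 genes described here encode the machinery of G2 phase and mitosis: cyclins and CDK1 with its activators (9 genes), mitotic kinases (7), spindle checkpoint proteins and partners of the anaphase-promoting complex (6), kinetochore and chromosomal passenger proteins (6), spindle kinesins (4), other spindle and midzone proteins (6), cytokinesis proteins (5), proteins of chromosome structure (6) and the transcription factor FOXM1 (1). They were taken as a list of symbols, and each was matched to the Affymetrix probe sets annotated with that symbol alone, which gave 101 of 54675 probe sets. Each gene was read from its brightest probe set, and all 50 members were among the 13842 genes tested, as the dimmest 30% of genes were left out. Human lymphoblastoid lines, which are B cells kept growing in culture, were profiled untreated and after MNNG, a methylating agent, in a study of gene expression and cell killing. Besides 24 numbered panel lines there were 2 established ones, TK6 and its mismatch repair-deficient derivative MT1. Each line was sampled in mid log phase on duplicate arrays per condition, 52 with MNNG and 52 untreated. The sources used here state neither the dose nor the length of exposure.

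Cells make most transcripts of mitotic proteins late in the cycle, from S phase to mitosis. In G1 the DREAM complex holds these genes silent, as it does after DNA damage, when p53 raises the kinase inhibitor CDKN1A. DREAM acts through short promoter elements (CHR, a cell cycle gene homology region, and CCAAT boxes, bound by NF-Y). MNNG leaves a methylated guanine that MGMT can reverse. Where it remains, mismatch repair turns it into a damage signal in the next rounds of replication, and the cells stop in G2. In a culture, fewer cells in G2 or mitosis and less RNA per cell of these genes cannot be told apart.

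Of the 52 MNNG arrays, 22 were set aside because 2 probe sets for the same spiked-in cre transcript disagreed on them. Their difference was -5.91 to -4.96 log2 units on these arrays, against 0.082 to 0.83 on the other 82. The 22 held 21 arrays of the panel and 1 of MT1, so 19 panel lines kept an MNNG array (8 both, 11 only 1), TK6 kept both and MT1 kept 1. Values below are log2 levels, log2 of the intensity plus 16 after quantile normalization, and a change is MNNG minus untreated in log2 units with its standard error after ±. Duplicates correlated at 0.959 to 0.997 in 35 pairs, and nothing says that they came from separate cultures, so p-values that rest on them may measure technical spread. Of 8 B-cell markers 7 were measured, with gene means of 8.72 to 12.8, against 5.32 to 7.36 for the T, NK, myeloid, fibroblast and epithelial markers. MT1 was an exception for MS4A1, which encodes CD20 (6.41 in untreated MT1, 11.2 in untreated TK6). Adjusted p-values are those of limma with Benjamini-Hochberg adjustment over all 13842 genes, and a gene was called below 0.05.

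In TK6, MNNG lowered many members and raised a smaller number. The largest falls were in NEK2, CKS1B, BUB1, PLK4 and AURKB, and the largest rises in CENPE, NCAPG, SMC4, CDK1 and HMMR. Of the 50 members, 8 rose and 16 fell, which is 48% of them against 41.2% of all genes called (21.6% higher and 19.5% lower). The median change of the members was -0.18, against -0.029 for all genes. With each array centred on its median, 2 rose (CENPE and NCAPG) and 12 fell, and the calls of SMC4 (0.39), KIF4A (0.33), CDK1 (0.25) and HMMR (0.24) ended. On values as deposited 6 rose and 12 fell, and the shares of all genes called under these scalings are not given here. Set against the all-gene median, which was 0.12 on values as deposited and -0.083 after centring, the median member stood at -0.15 after quantile normalization and at -0.29 in both of the others.

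Among the cyclins and CDK1 partners in TK6, 1 gene rose and 4 fell. The level of CKS1B, a small protein that binds CDK1, was 10.01 and 10.22 on the MNNG arrays and 11.22 and 10.95 on the untreated arrays (-0.97 ± 0.11, adjusted p = 9.53e-10). CCNA2, the cyclin of S and G2 phase, stood at 9.30 and 9.48 with MNNG and at 10.00 and 10.16 untreated (-0.69 ± 0.11, adjusted p = 1.59e-06). The arrays of both conditions lay apart for these genes. That was so for 41 of the 50 members in TK6, with 15 higher (32.2% of all genes), 26 lower (35.8%) and 68.0% of all genes in either direction. CCNB2, a mitotic cyclin, fell by 0.42 (SE 0.075) and CDC25C, a phosphatase that activates CDK1, by 0.47 (SE 0.17). The call of CDC25C ended without MNNG replicate 2 (-0.39), without untreated replicate 1 (-0.41) and in a fit with the replicate number as a block (-0.47, adjusted p = 0.162). A second, dimmer probe set of CCNB2 went the other way (1.08 ± 0.30, adjusted p = 0.00361). CDK1, the kinase that drives entry into mitosis, was the gene that rose, with 11.42 and 11.51 on the MNNG arrays and 10.96 and 10.91 on the untreated arrays (0.53 ± 0.12, adjusted p = 0.000395). Other probe sets of CDK1, with mean levels of 10.03 and 9.65, were not called (0.18 ± 0.20 and 0.12 ± 0.21). The main partner of CDK1, CCNB1, was at 10.38 and 10.55 with MNNG and at 10.45 and 10.36 untreated, with overlapping arrays and no call (0.060 ± 0.075). A second, dimmer probe set of CCNB1 was called higher (0.43 ± 0.16, adjusted p = 0.0331). CKS2 (0.095), CCNF (0.18) and CDC25B (-0.24), a second activating phosphatase, were not called either.

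Mitotic kinases gave 4 falls and no rise in TK6. NEK2, a kinase that separates the centrosomes, was at 8.68 and 8.60 with MNNG and at 9.61 and 9.80 untreated, which was the largest fall of a member (-1.07 ± 0.12, a factor of 2.09, adjusted p = 7.03e-10). BUB1, a spindle checkpoint kinase, was at 9.14 and 9.12 against 10.13 and 10.02 on the untreated arrays (-0.95 ± 0.12). AURKB, the kinase of the chromosomal passenger complex, was at 9.42 and 9.35 against 10.07 and 10.09 untreated (-0.69 ± 0.088, adjusted p = 1.33e-08). In each of these 3 genes both MNNG arrays lay below both untreated arrays, by more than the duplicates differed. PLK4, which starts centriole duplication, fell by 0.77 (SE 0.14). PLK1, the main mitotic Polo kinase, had the same direction but the least precise value of the group (-0.57 ± 0.27, adjusted p = 0.0925, not called), and its untreated duplicates were 8.66 and 9.22. AURKA, which matures centrosomes, stood at 10.81 and 10.88 with MNNG and at 10.73 and 10.49 untreated (0.23 ± 0.11, not called), and the checkpoint kinase TTK at -0.22 was not called.

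**Figure D1:**
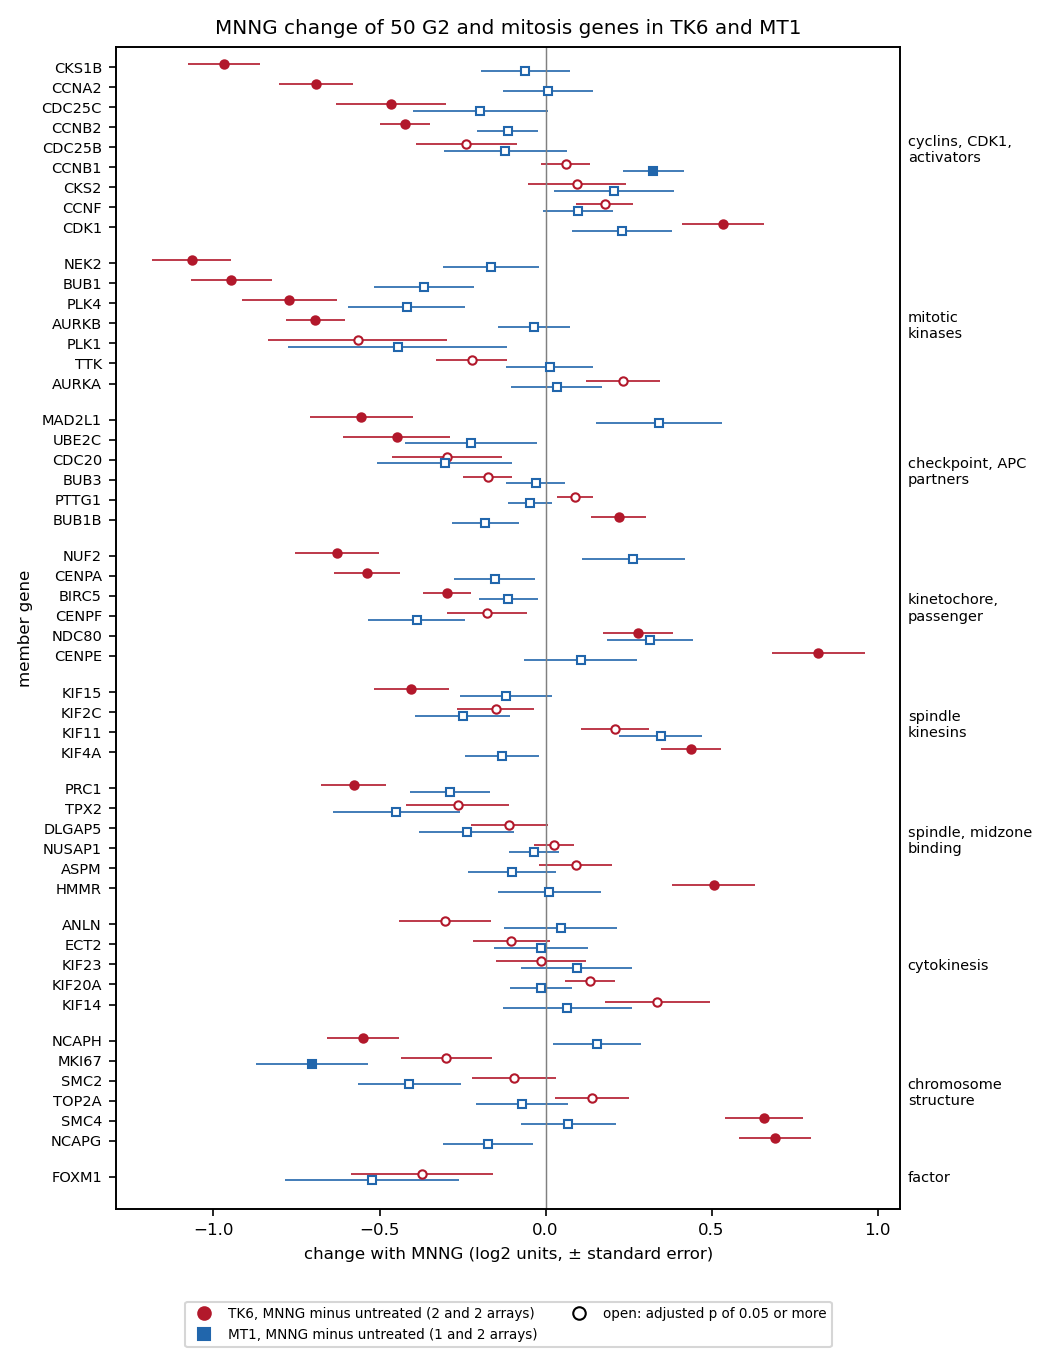
Change with MNNG (x axis, log2 units) of each of the 50 members (y axis, by role) in TK6 (circles) and MT1 (squares), with standard errors as bars and filled symbols for an adjusted p below 0.05. In TK6, 16 filled circles lie left of 0 and 8 right of it, with NEK2 at -1.07 and CENPE at 0.82 as the ends, and in MT1 only MKI67 and CCNB1 are filled.

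The spindle checkpoint and kinetochore groups moved in both directions. MAD2L1, a checkpoint protein that holds back the anaphase-promoting complex, was at 10.14 and 10.53 on the MNNG arrays of TK6 and at 10.92 and 10.87 on the untreated arrays (-0.56 ± 0.15, adjusted p = 0.0031). Its call ended without MNNG replicate 1 (-0.36). UBE2C, the ubiquitin-conjugating enzyme of that complex, fell by 0.45 (SE 0.16; call lost without replicate 2 of either condition, -0.33 to -0.29), whereas its activator CDC20 was not called (-0.30 ± 0.17). BUB1B, the checkpoint protein BUBR1, was called higher (0.22 ± 0.082), but not in 3 of the fits that left out 1 TK6 array (0.14 to 0.23), and BUB3 (-0.17) and PTTG1, the securin (0.089), were not called. Of the kinetochore genes, NUF2 fell by 0.63 (SE 0.13), while its partner in the same complex, NDC80, rose (0.28 ± 0.11; call lost without replicate 2 of either condition, 0.19 to 0.23). CENPA, the centromeric histone, fell by 0.54 (SE 0.10). CENPE, a kinetochore motor, had the largest rise of a member, with 8.59 and 8.60 on the MNNG arrays and 7.85 and 7.69 on the untreated arrays (0.82 ± 0.14, adjusted p = 4.56e-06). CENPF, a large kinetochore protein, was not called (-0.18). BIRC5, the passenger protein survivin, fell by 0.30 (SE 0.072), but 1 of its other probe sets rose in TK6 (0.43 ± 0.12) and another fell (-0.70 ± 0.12).

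Condensin subunits also split in TK6. NCAPG, a condensin I subunit, was at 10.11 and 10.12 with MNNG and at 9.55 and 9.29 untreated (0.69 ± 0.11, adjusted p = 1.36e-06). SMC4, a core condensin ATPase, was at 11.20 and 11.34 with MNNG and at 10.66 and 10.56 untreated (0.66 ± 0.12). NCAPH, which closes the condensin I ring, was at 7.48 and 7.57 with MNNG and at 8.16 and 7.99 untreated (-0.55 ± 0.11, adjusted p = 4.83e-05). In all 3 the arrays of the conditions lay apart, high with MNNG for NCAPG and SMC4 and low for NCAPH. The rise of SMC4 was not seen by its 2 other probe sets (0.01 and 0.01), and averaging the probe sets ended its call (0.23). SMC2, the other core ATPase, was at -0.09, TOP2A, the topoisomerase that untangles chromatids, at 0.14, and the proliferation antigen MKI67 at -0.30, none of them called. Of the 3 dimmer probe sets of MKI67, 2 rose in TK6 (0.33 ± 0.11 and 0.39 ± 0.12) and the other was at -0.01.

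Of the remaining groups in TK6, KIF4A, a chromosome-bound kinesin that condenses and aligns chromosomes, rose (0.44 ± 0.091), and KIF15, a spindle kinesin, fell by 0.40 (SE 0.11). KIF11 (0.21), the motor that pushes spindle poles apart, and KIF2C (-0.15), which dismantles microtubule ends, were not called. A second, dimmer probe set of KIF2C was called lower (-0.43 ± 0.11, adjusted p = 0.00103). HMMR, a spindle assembly factor, was at 10.73 and 11.04 with MNNG and at 10.46 and 10.30 untreated (0.51 ± 0.13, adjusted p = 0.000955), and its call ended without MNNG replicate 2 (0.35). PRC1, which bundles midzone microtubules, was at 9.58 and 9.61 with MNNG and at 10.17 and 10.18 untreated (-0.58 ± 0.098). TPX2 (-0.26), DLGAP5 (-0.11), NUSAP1 (0.026) and ASPM (0.090), all spindle proteins, were not called. A dimmer probe set of ASPM was called lower (-1.15 ± 0.23), and another was not called (-0.31 ± 0.21). None of the 5 cytokinesis genes passed limma's test, with changes of -0.30 (ANLN) to 0.34 (KIF14), and 2 of them had an unadjusted p below 0.05. Some other members not called in TK6 had a dimmer probe set that was called. It was higher for AURKA (0.25) and BUB3 (0.34 and 0.28) and lower for KIF23 (-0.84) and TOP2A (-0.56). FOXM1, the transcription factor that turns on many G2 genes, was at 8.11 and 7.87 with MNNG and at 8.13 and 8.60 untreated (-0.37 ± 0.21, adjusted p = 0.172).

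**Figure D2:**
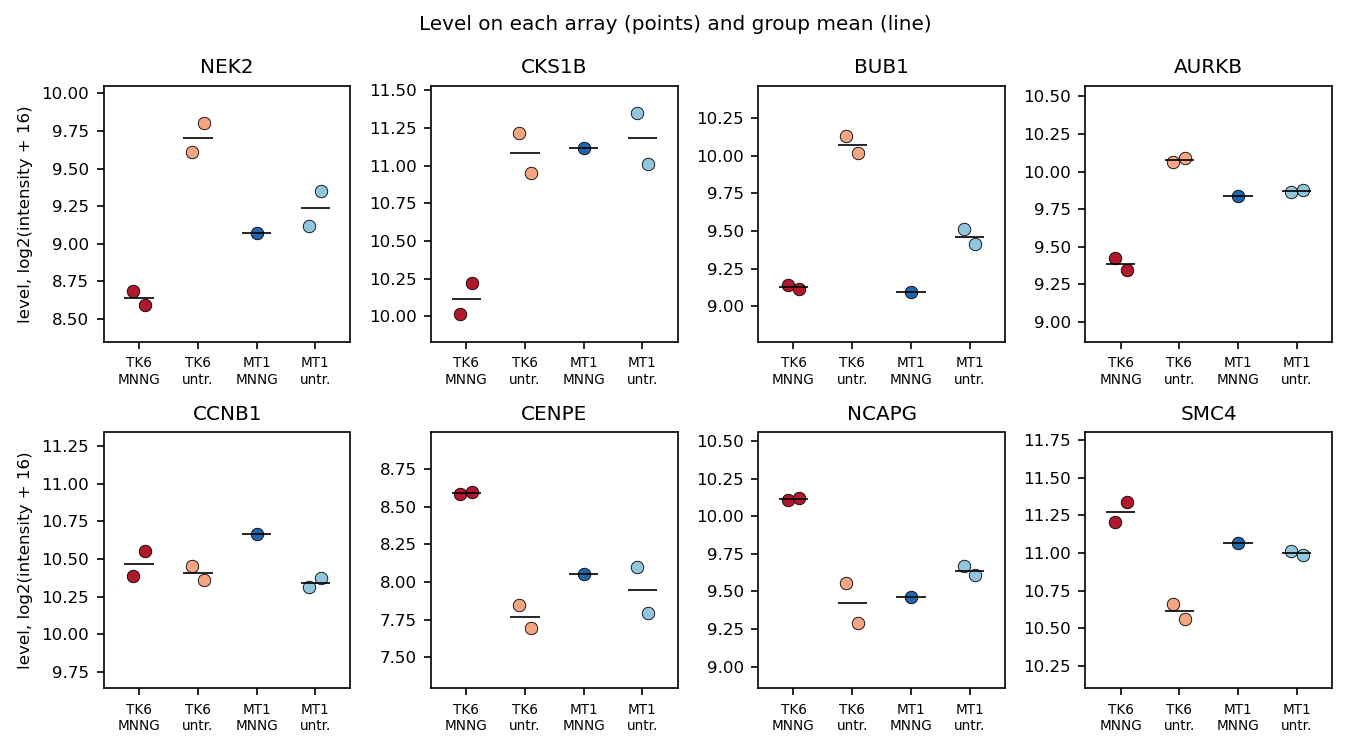
Level on each array (y axis, log2 of intensity plus 16, all panels spanning the same number of units) for 8 members, with TK6 MNNG, TK6 untreated, MT1 MNNG (1 array) and MT1 untreated from left to right, points for arrays and bars for means. In TK6 the MNNG points lie below the untreated points for NEK2, CKS1B, BUB1 and AURKB, above them for CENPE, NCAPG and SMC4, and among them for CCNB1.

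Other gene lists put these values in context. Of 70 further G2 and mitosis genes measured, 19 rose and 19 fell in TK6 (median 0.0088), among them CENPH (-1.25 ± 0.12), UBE2S (-1.22 ± 0.16), LMNB1 (-1.63 ± 0.49) and FAM83D (1.20 ± 0.084). Genes of G1/S and DNA replication behaved otherwise, as 38 of 43 rose and 2 fell (median 0.65), with GINS4 (2.10 ± 0.28), CCNE2 (1.55 ± 0.16), UHRF1 (1.45 ± 0.098) and CDC25A (1.35 ± 0.13) the largest. CDKN1A was at 12.63 and 12.39 with MNNG and at 9.50 and 9.61 untreated in TK6, and MDM2 at 12.16 and 12.33 against 9.18 and 9.42. Both p53 targets were therefore far above their untreated duplicates. Among 12 components and partners of the DREAM and MuvB complexes, RBL2 (1.20 ± 0.14), RBL1 (0.76 ± 0.15) and LIN52 (0.56 ± 0.20) rose and E2F5 fell by 1.14 (SE 0.074). The difference between the lists was not tested.

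Promoter sequence is shown for 6 members, 3 that fell in TK6 (CCNB2, BUB1, NEK2), 2 that rose (CENPE, NCAPG) and PLK1, because the elements that silence and activate such genes lie just before the transcription start. Each runs from 130 bases before the start to 50 after it on the gene's strand in RefSeq's GRCh38.p14, and capitals mark the CHR letters TTTGAA, a variant of them with the letters TTCGAA, and the letters CCAAT, on either strand.
CCNB2 (chr15:59105016-59105195, plus strand): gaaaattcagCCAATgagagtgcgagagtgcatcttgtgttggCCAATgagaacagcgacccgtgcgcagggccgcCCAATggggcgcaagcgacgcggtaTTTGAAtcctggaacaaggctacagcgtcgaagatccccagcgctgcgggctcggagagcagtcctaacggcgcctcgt
BUB1 (chr2:110678014-110678193, minus strand): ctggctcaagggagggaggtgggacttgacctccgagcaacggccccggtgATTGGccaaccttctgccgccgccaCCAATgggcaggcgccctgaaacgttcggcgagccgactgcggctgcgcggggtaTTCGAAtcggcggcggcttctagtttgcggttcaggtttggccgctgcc
NEK2 (chr1:211675572-211675751, minus strand): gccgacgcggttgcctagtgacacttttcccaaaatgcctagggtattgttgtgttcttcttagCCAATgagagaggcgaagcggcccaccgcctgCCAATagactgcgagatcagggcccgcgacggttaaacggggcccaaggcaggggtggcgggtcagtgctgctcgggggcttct
CENPE (chr4:103198294-103198473, minus strand): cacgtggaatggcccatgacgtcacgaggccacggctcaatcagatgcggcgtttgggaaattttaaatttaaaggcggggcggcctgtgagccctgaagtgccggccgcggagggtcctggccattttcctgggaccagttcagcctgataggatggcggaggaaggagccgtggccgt
NCAPG (chr4:17810849-17811028, plus strand): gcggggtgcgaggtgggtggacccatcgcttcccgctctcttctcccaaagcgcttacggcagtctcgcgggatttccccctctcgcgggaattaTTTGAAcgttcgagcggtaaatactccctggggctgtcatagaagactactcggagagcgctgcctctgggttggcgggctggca
PLK1 (chr16:23678759-23678938, plus strand): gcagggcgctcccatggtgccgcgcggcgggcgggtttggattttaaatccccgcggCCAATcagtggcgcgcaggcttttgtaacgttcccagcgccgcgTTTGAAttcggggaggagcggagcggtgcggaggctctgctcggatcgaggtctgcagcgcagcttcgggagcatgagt
In these windows CCNB2 holds 3 CCAAT and 1 TTTGAA, PLK1 1 of each, and BUB1 2 CCAAT (1 of them read on the other strand as ATTGG) and 1 TTCGAA. NEK2 holds 2 CCAAT and neither CHR sequence, NCAPG 1 TTTGAA without CCAAT, and CENPE none of the 3. No match overlaps another in these windows, and TTCGAA reads the same on both strands.

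Over the whole table, 43 of the 50 members matched 57 promoters of 300 bases, from 250 bases before the start to 50 after it, and TPX2, BUB3, FOXM1, BIRC5, UBE2C, TTK and AURKA were not analysed here. Searched on both strands, TTTGAA was in 61.4% of these, against 15.2% of all 35116 promoters. TTCGAA was in 7.02%, against 1.45%, and CCAAT in 66.7%, against 34.6%. Both a CHR sequence and CCAAT stood in 47.4% of member promoters and in 6.38% of all. By response in TK6, TTTGAA was in 9 of 14 matched members that fell, 7 of 8 that rose and 16 of 21 that were not called. CCAAT was in 12 of the 14 that fell, 3 of the 8 that rose and 18 of the 21 not called. These are matches of letters, and no binding was measured.

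In MT1, 1 member rose and 1 fell, 4% of the 50 against 3.56% of all genes called (2.36% higher and 1.21% lower). The median member stood 0.099 below the all-gene median after quantile normalization and 0.31 below it both on values as deposited and with arrays centred on their medians. Only 1 MNNG array was kept there, and it was assumed to vary like the others. CCNB1 was at 10.7 on that array and at 10.31 and 10.37 on the untreated arrays (0.32 ± 0.092, adjusted p = 0.0382). MKI67 was at 8.72 against 9.56 and 9.29 untreated (-0.70 ± 0.17, adjusted p = 0.0124). The call of CCNB1 ended when 1 untreated array was left out, whichever it was, and that of MKI67 without replicate 1 (-0.57). Neither was called with the replicate block, and CCNB1 was at -0.083 with arrays centred on their medians. A second probe set of TOP2A fell by 1.02 (SE 0.22) in MT1, while the brighter one was at -0.071. Dimmer probe sets of ASPM (-0.97) and KIF2C (-0.55) were also lower, against -0.10 and -0.25 by the brightest. CDKN1A was at 9.13 with MNNG in MT1 against 9.02 and 9.07 untreated. The MNNG array lay outside both untreated arrays for 40 members, with 12 higher (39.9% of all genes), 28 lower (30.2%) and 70.1% of all genes in either direction. The 48 members not called lay between -0.52 (FOXM1) and 0.35 (KIF11), with 8 of them at an unadjusted p below 0.05.

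The difference between the 2 responses was tested directly, as TK6 minus MT1. The rise was greater or the fall smaller in TK6 for 5 members and the reverse held for 8, 26% of the 50 against 24.7% of all genes (12.2% positive and 12.5% negative). CKS1B (-0.91 ± 0.17), NEK2 (-0.90 ± 0.19), MAD2L1 (-0.90 ± 0.24), NUF2 (-0.89 ± 0.20) and NCAPH (-0.70 ± 0.17) had the largest negative differences, followed by CCNA2 (-0.70), AURKB (-0.66) and BUB1 (-0.58). NCAPG (0.86 ± 0.17), CENPE (0.72 ± 0.22), SMC4 (0.59 ± 0.18), KIF4A (0.57 ± 0.14) and BUB1B (0.40 ± 0.13) had positive differences. The sign differed between TK6 and MT1 for MAD2L1 (-0.56 and 0.34), NUF2 (-0.63 and 0.26), NCAPH (-0.55 and 0.15) and CCNA2 (-0.69 and 0.0072). It also differed for NCAPG (0.69 and -0.17), KIF4A (0.44 and -0.13) and BUB1B (0.22 and -0.18). None of these MT1 values was called, and they rest on 1 MNNG array, so their sign is uncertain. Leaving out 1 array ended the call of BUB1 in 3 fits (-0.57 to -0.52), of SMC4 in 2 (0.52 to 0.54), of CENPE in 2 (0.56 to 0.64), and of MAD2L1 (-0.70) and BUB1B (0.32) in 1, without TK6 MNNG replicate 1. With the replicate block, KIF4A (0.54, adjusted p = 0.0505) and CENPE (0.56, adjusted p = 0.142) were not called. With each array centred on its median, limma called 2 positive differences (NCAPG at 1.06 and CENPE at 0.90) and 0 negative ones, with 3 members negative at an unadjusted p below 0.05. On values as deposited it called 1 positive and 6 negative. The shares of all genes called under these scalings are not given here, so these counts do not set the members apart. The G1/S list gave 25 positive and 1 negative difference of 43 genes.

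Before treatment MT1 and TK6 differed in 11 members, with 6 higher and 5 lower in MT1 (22% against 25.2% of all genes, 13.6% higher and 11.7% lower). With arrays centred on their medians limma called 0 higher (0 also at an unadjusted p below 0.05) and 2 lower, and on values as deposited 1 higher and 5 lower. Shares of all genes called under these scalings are not given here. ASPM, which holds spindle poles together, was at 9.70 and 9.67 in untreated MT1 and at 9.20 and 9.34 in untreated TK6 (0.41 ± 0.11, adjusted p = 0.00311). BUB1B (0.41), SMC4 (0.38), KIF11 (0.35), ECT2, which starts the cleavage furrow (0.35), and BIRC5 (0.22) were also higher in MT1. NDC80 was at 8.61 and 8.62 in MT1 and at 9.47 and 9.29 in TK6 (-0.77 ± 0.11, adjusted p = 1.91e-07), the largest baseline difference. BUB1 (-0.61), NEK2 (-0.47), TOP2A (-0.39) and BUB3 (-0.31) were lower in MT1. Both lines stood high beside the panel: TK6 was above every untreated panel line for 30 of the 50 members (16.4% of all genes) and MT1 for 35 (17.8%). On values as deposited the counts were 30 for TK6 (10.3% of all genes) and 32 for MT1 (11.6%). After centring they were 31 (20.8%) and 32 (19.6%). UBE2C, for example, was at 11.5 in TK6 and 11.6 in MT1, against 9.30 to 10.6 in the 24 panel lines, and AURKA at 10.6 in both against 8.85 to 9.65. NCAPG (9.42), KIF11 (8.53), BUB1B (9.66) and BUB3 (11.2) in TK6 lay below the panel's median.

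Across the panel MNNG changed the members little and in both directions by their brightest probe sets. Of the 50, 9 rose and 12 fell, 42% against 42.6% of all genes called (28.7% higher and 13.8% lower). The median member changed by -0.0073 and the median gene by 0.037. Changes of members by these probe sets lay between -0.41 and 0.19, and the levels of MNNG-treated and untreated lines overlapped for every member. Some dimmer probe sets moved further, as for ASPM (-0.82), BUB1 (-0.67), NUSAP1 (-0.61), TOP2A (-0.58) and BIRC5 (0.72). Of 90 member probe sets tested, 17 rose and 29 fell, with 46.1% of all probe sets called. BIRC5, BUB3 and PLK4 had probe sets called in both directions. After centring the arrays on their medians limma called 0 rises (0 also at an unadjusted p below 0.05) and 14 falls, and on values as deposited 6 rose and 10 fell. For these scalings the shares of all genes called are not given here. Set against the all-gene median, the median member stood at -0.044 after quantile normalization and at -0.12 in both of the others.

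The largest falls in the panel were in genes of chromosome structure, mitotic kinases and spindle proteins. MKI67 ranged from 8.30 to 9.52 over the 19 lines with MNNG (median 8.94) and from 8.83 to 10.0 untreated (median 9.33), and was lower with MNNG in 18 of 19 lines (-0.41 ± 0.044, adjusted p = 2.26e-07). TPX2, which activates AURKA on the spindle, ranged from 8.92 to 9.50 with MNNG (median 9.11) and from 9.12 to 9.79 untreated (median 9.45), and was lower with MNNG in 18 of 19 lines (-0.30 ± 0.043). BUB1 was lower with MNNG in 19 of 19 lines (-0.28 ± 0.028, adjusted p = 6.16e-08; 9.00 against 9.25 in the median line). SMC2 fell by 0.22 (SE 0.037) in the mean and was lower in 17 lines, and BUB1B fell by 0.19 (SE 0.027) and was lower in 18. PLK1 was called at -0.23 ± 0.053 and was lower in 15 lines, but this value depended on the replicate numbers. It was -0.35 without replicate 1 and 0.010 without replicate 2, neither called, and -0.11 (limma, adjusted p = 0.258) with each MNNG array set against the untreated array of its own number. Untreated PLK1 was itself higher in replicate 2 than in replicate 1 in 19 of 24 lines (median 0.43), and in all 9 lines that kept only MNNG replicate 1 (0.38 to 0.74). Other members had such steps in these 9 lines. Replicate 2 was lower in all 9 for CKS2 (median -0.28), AURKA (-0.20), CKS1B (-0.15) and CCNB1 (-0.095), which rose in the panel. Among members that fell, it was lower in all 9 for DLGAP5 (-0.20), PLK4 (-0.16) and BUB1 (-0.15) and higher in all 9 for TPX2 (0.14). PLK4 (-0.18), PRC1 (-0.15), ASPM (-0.12), NUSAP1 (-0.096), CENPF (-0.085) and DLGAP5 (-0.074) made up the 12. The call of CENPF ended in 8 of the fits that left out 1 line or replicate number (-0.081 to -0.032). The size of these falls differed between probe sets: averaging all probe sets gave -0.15 for MKI67 and -0.13 for SMC2, and called 19 falls among the members. How many of all genes fell with averaging is not given here. PLK4 was called both ways, as its second probe set, of nearly the same level (7.69 against 7.87), was higher with MNNG (0.081 ± 0.033, adjusted p = 0.0459) and the remaining one lower (-0.40 ± 0.058).

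Rises in the panel were seen in cyclins and CDK1 partners, kinases, and checkpoint and kinetochore genes. MAD2L1 ranged from 9.71 to 10.8 with MNNG (median 10.5) and from 9.82 to 10.5 untreated (median 10.3), and was higher with MNNG in 15 of 19 lines (0.19 ± 0.057, adjusted p = 0.0107). CCNB1 ranged from 9.72 to 10.7 with MNNG (median 10.3) and from 9.84 to 10.5 untreated (median 10.1), higher in 17 lines (0.17 ± 0.028, adjusted p = 3.62e-05). NDC80 (0.17 ± 0.036) was higher in 16 lines, and AURKA (0.14 ± 0.025) and NUF2 (0.14 ± 0.039) in 17 each. CKS2 (0.14), CCNB2 (0.097), CKS1B (0.094) and TTK (0.071) completed the 9. With arrays matched by replicate number, MAD2L1 (0.15, adjusted p = 0.0556) and CKS1B (0.062, adjusted p = 0.082) were not called. After centring, AURKA (-0.00848), CKS2 (-0.018), CCNB2 (-0.055) and CKS1B (-0.058) lay below 0. In the 10 lines left without replicate 1, limma called 0 rises (2 at an unadjusted p below 0.05) and 2 falls, and in the 8 lines that kept both MNNG arrays 5 rose and 6 fell. The shares of all genes called in these fits are not given here, so the counts do not set the members apart.

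A measure of RNA length on the arrays differed between the conditions too. The control probe sets at the 3' and 5' ends of actin mRNA differed by 0.13 to 0.49 log2 units (median 0.28) on the 27 MNNG arrays of the panel and by -0.078 to 0.46 (median 0.050) on the 48 untreated arrays. Their difference was larger with MNNG in 18 of 19 lines (median of lines 0.21). Over these 19 lines, that increase correlated with the change of MKI67 at r = -0.63, of TPX2 at -0.54, of PLK1 at -0.52, of SMC2 at -0.49, of BUB1 at -0.13, of MAD2L1 at 0.25 and of CCNB1 at -0.033 (median over members -0.23). For GAPDH the MNNG arrays were at -0.062 to 0.19 (median 0.014), the untreated arrays at -0.086 to 0.12 (median -0.023), and the same correlation was 0.39 for MKI67. In TK6 the actin difference was 0.32 and 0.46 with MNNG and 0.19 and 0.34 untreated, and in MT1 0.57 with MNNG and 0.23 and 0.36 untreated. The part of this in the changes was not tested.

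**Figure D3:**
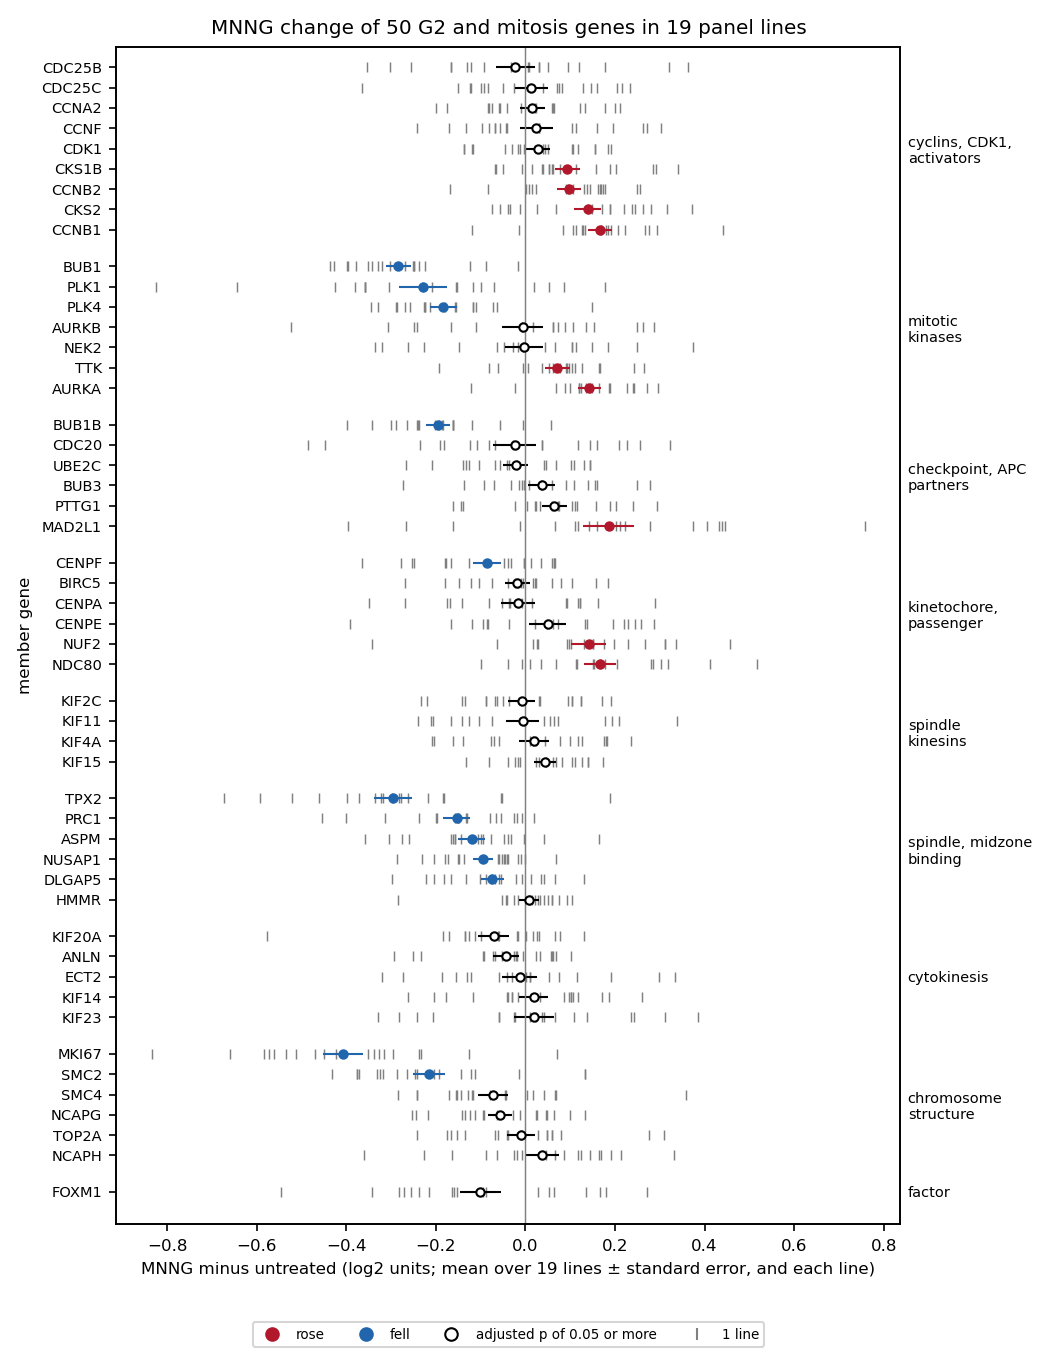
Change with MNNG (x axis, log2 units) of the 50 members (y axis, by role) in the panel, with grey ticks for each of 19 lines, circles for the mean, bars for the standard error and colour for the call. BUB1 and MKI67 lie left of 0 in 19 and 18 lines and CCNB1 right of it in 17, while 29 members are open.

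Of the 21 members called in the panel and the 24 called in TK6, 9 were shared, which is 42.9% of the first and 37.5% of the second. Of all 50 members, 48% were called in TK6 and 42% in the panel, so the shared parts were near the shares of all members. Of all genes, 41.2% were called in TK6 and 42.6% in the panel, and their overlap was not counted. By the probe sets used for the shared members, PLK4, BUB1 and PRC1 fell and NDC80 rose in both. CCNB2, CKS1B, MAD2L1 and NUF2 rose in the panel and fell in TK6, and BUB1B fell in the panel and rose in TK6. These opposite values were -0.97 in TK6 and 0.094 in the panel for CKS1B, and -0.63 in TK6 and 0.14 in the panel for NUF2. Untreated MGMT was at 5.21 and 5.19 in TK6 and at 5.21 and 5.33 in MT1, near the bottom of the scale at 5. Over the 19 panel lines it was 5.12 to 8.07 (median 7.56). The difference between TK6 and the panel was not tested, nor was the part of MGMT in it.

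Panel lines differed from each other in the response of 2 members, AURKB (F test of limma, adjusted p = 0.00321) and PTTG1 (adjusted p = 0.00352), 4% of the 50 and 6.13% of all genes. AURKB changed by -0.52 in line 4, -0.31 in line 17, -0.25 in line 19 and -0.24 in line 18, and by up to 0.29 in line 13, with a mean of -0.0063. PTTG1 changed by -0.16 in line 4, -0.14 in lines 17 and 20, and by up to 0.29 in line 10. Line 4 had 42 of 50 members below 0 (median -0.15), as did line 18 (median -0.13), while line 14 had 45 above 0 (median 0.075). For comparison, the typical gene moved by 0.0059 in line 4, 0.030 in line 18 and 0.0028 in line 14 (medians). The shares of all genes below or above 0 in these lines are not given here. The actin 3' minus 5' difference changed by 0.38 in line 18, the highest of the 19 lines, by -0.089 in line 14, the lowest, and by 0.17 in line 4, and its part in these counts was not tested. Lines 4 and 17 were the only 2 lines that kept MNNG replicate 2 alone. Line and replicate number therefore cannot be told apart in their values. In line 14, untreated replicate 2 had a median intensity of 16.0, against 44.8 in replicate 1. The lowest value in the data was also 16.0, so much of that untreated array lay at the floor. Its part in the count of line 14 was not tested. Over the 19 lines the responses of members correlated with each other at a median r of 0.20, against 0.0056 for pairs of all genes.

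Untreated MGMT ranged from 5.12 in line 4, near the bottom of the scale at 5, to 8.07 over the 19 lines. The slope of the response on this level was called for 4 members, 8% against 5.79% of all genes (2.67% higher and 3.11% lower). AURKB responded higher in lines with more MGMT (0.20 ± 0.040 per log2 unit, adjusted p = 0.00442, r = 0.77, rho = 0.82), as did NCAPH (0.14 ± 0.040, r = 0.66, rho = 0.70) and KIF20A, a cytokinesis kinesin (0.13 ± 0.034, r = 0.70, rho = 0.51). TOP2A had the opposite slope (-0.12 ± 0.032, r = -0.66, rho = -0.35). Without lines 4 and 9, the farthest from the median MGMT level, limma called 0 of the 50 members in either direction, with 7 positive slopes and 0 negative ones at an unadjusted p below 0.05. Over those 17 lines r was 0.78 for AURKB, 0.56 for NCAPH, 0.63 for KIF20A and -0.18 for TOP2A. Leaving out line 4 alone ended all 4 calls, with slopes of 0.18 for AURKB, 0.10 for NCAPH, 0.057 for KIF20A and -0.093 for TOP2A. In that limma fit, 2 positive slopes and 1 negative one among all 50 members had an unadjusted p below 0.05. Shares of all genes in these fits with lines left out are not given here. The call of NCAPH ended without any of 13 of the 19 lines (0.10 to 0.14) and that of TOP2A without any of 6 (-0.12 to -0.093). After centring the arrays, the slope was 0.024 for AURKB and -0.022 for KIF20A, neither called, and with both probe sets of AURKB averaged it was 0.063, not called.

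**Figure D4:**
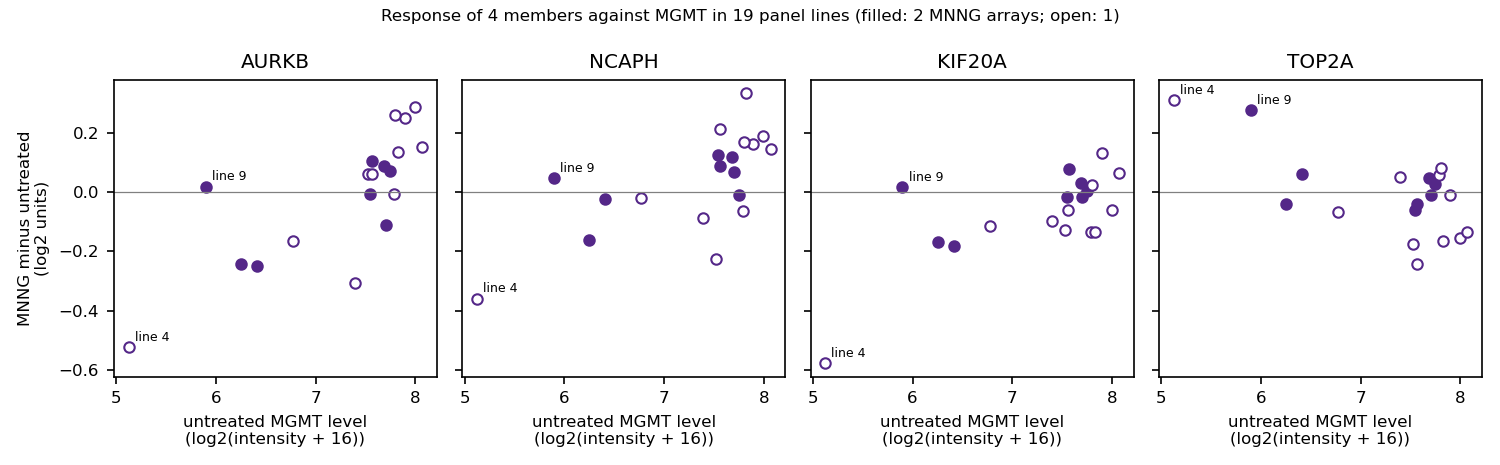
Response to MNNG (y axis, log2 units) against the untreated MGMT level (x axis, log2 of intensity plus 16) of AURKB, NCAPH, KIF20A and TOP2A in 19 panel lines, filled for 2 MNNG arrays and open for 1. Line 4, with the least MGMT (5.12), has the lowest AURKB value (-0.52), and most lines lie between 7 and 8 on the x axis.

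Before any treatment the panel lines differed in nearly every member and ranked alike for most of them. The F test called 49 of 50 members, all but CKS2, and 68.1% of all genes. The range from the lowest to the highest line had a median of 1.09 log2 units over members and 0.80 over all genes, and 28 members spanned at least 2-fold, 56% against 33.5% of all genes. MKI67 had the widest range, from 7.97 in line 7 (median 9.29) to 10.0 in line 20, which is 4.09-fold. PRC1 (3.23-fold), BUB1 (2.91-fold) and NCAPH (2.61-fold) followed. The narrowest ranges were those of CKS2 (1.47-fold, adjusted p = 0.0587), HMMR (1.61-fold), SMC4 (1.62-fold) and NCAPG (1.63-fold). Duplicates differed less, with a median SD of 0.12 within a line against 0.25 between lines. On values as deposited the F test called 39 of the members. The 68.1% of all genes is from quantile normalized values, and the share on values as deposited is not given here.

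A few lines set the ends of these ranges. Line 7 was the lowest for 43 of the 50 members, and its mean over members was 0.61 below that of the 24 lines, at -0.61 and -0.62 in its duplicates. Line 8 was the highest for 19 members (mean 0.33 above), line 1 for 10 and line 15 for 8. How many of all genes were lowest or highest in these lines is not given here. PLK1 was at 7.53 in line 7, 8.23 in the median line and 8.72 in line 1, and CCNB1 at 9.65 in line 7, 10.1 in the median line and 10.5 in line 8. BUB1 departed from this order: line 21 stood at 10.4 and the next line, 22, at 9.59, while line 7 was not its lowest. Its second tested probe set gave 9.47 in line 21 and at most 8.56 in any other. PRC1 was lowest in line 10 (7.95), with line 7 next at 8.42.

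**Figure D5:**
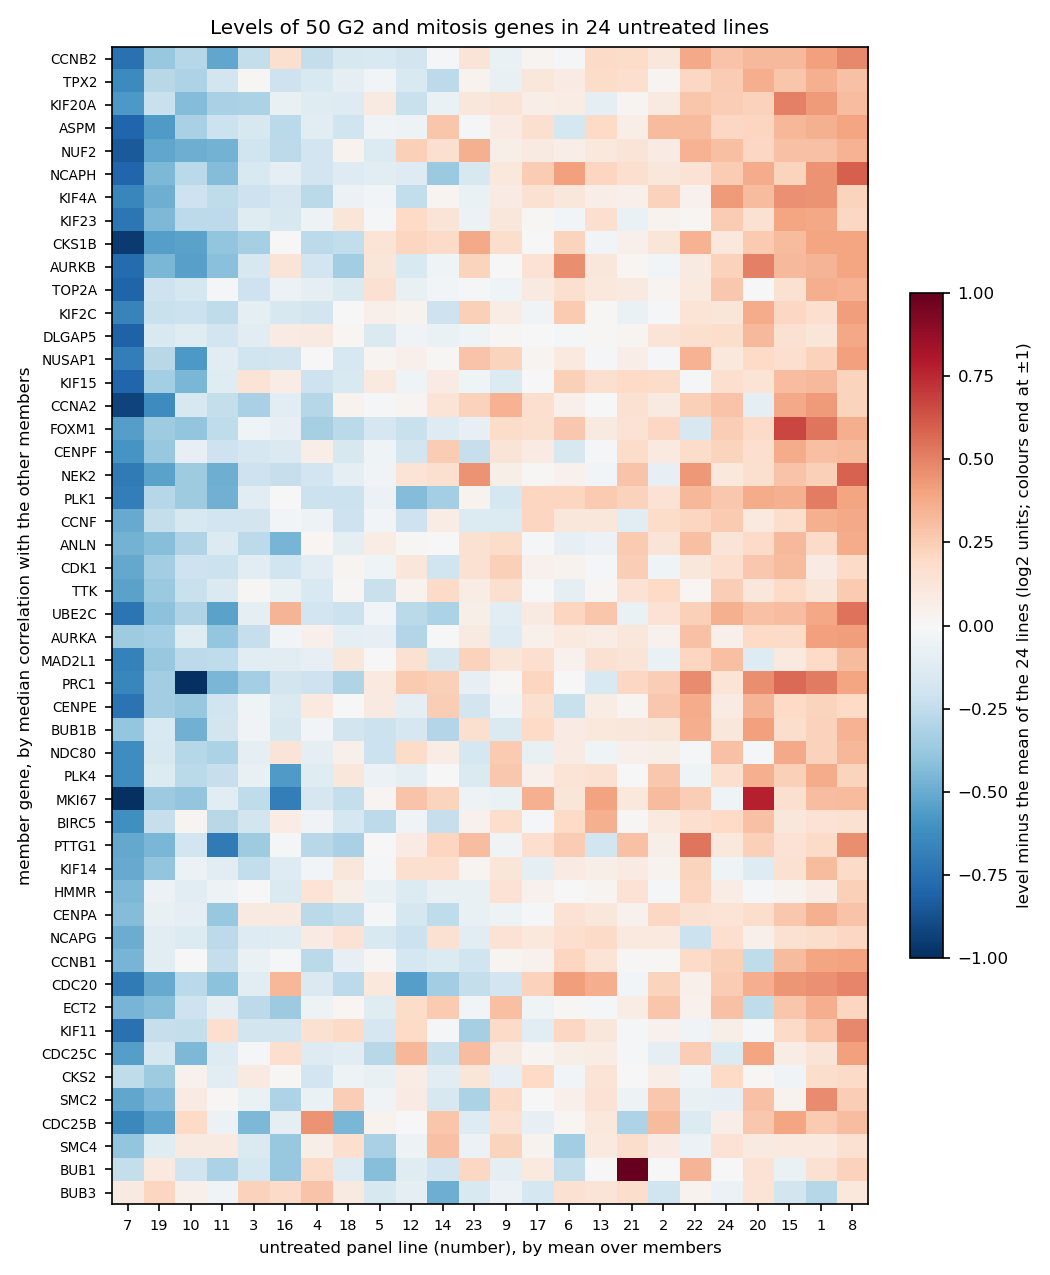
Levels of the 50 members (rows, by median correlation with the other members) in the 24 untreated lines (columns, by mean over members), as differences from each gene's mean in log2 units, with colours ending at ±1. Line 7 at the left is low and line 8 at the right is high in nearly all rows, and BUB3 in the bottom row does not follow.

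Members varied together over the 24 untreated lines. The median correlation of a pair of members was r = 0.68, against 0.0024 for pairs of all genes, and 96.3% of pairs were above 0. It was 0.57 without line 7, and 0.62 when the first array of one gene was set against the second array of the other. Members share the array, so values as deposited, where pairs of all genes also correlate (0.30), gave 0.61. The G1/S list had a median of 0.59 and the other G2 and mitosis genes 0.45. CCNB2 (0.80), TPX2 (0.78) and KIF20A (0.77) had the highest median correlation with the other members. BUB3, which is needed for the checkpoint but is not known for a peak in G2, had the lowest (-0.25), followed by BUB1 (0.31) and SMC4 (0.39). The mean over members of a line was reproducible between duplicates (r = 0.98). It also correlated with the median intensity of the line's arrays (r = -0.57, rho = -0.65 over 24 lines), and the part of this in the differences between lines was not tested.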

How the data were processed

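Total RNA was hybridised to 104 Affymetrix arrays. The deposited values are linear intensities that the authors made with PLIER, per the submitters' processing notes, and its version is not given in the sources used here. They were taken to log2(intensity + 16) and quantile normalized over 82 arrays. Probe sets were named by the platform annotation (41097 with 1 symbol, 1801 with several, 11777 with none). The brightest probe set stood for a gene, and the lowest 30% of genes were left out.

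The panel was fitted with limma (trend) on means per line and condition with line as a block. TK6, MT1, their difference, untreated MT1 minus TK6 and the F tests came from 1 model with a mean per line and condition. The MGMT slope used 1 response per line. The number of arrays limits the precision. Sequences are RefSeq's. Tools were R 4.3.3, limma 3.58.1, data.table (version 1.17.8), and Python 3.11.15 with pandas 2.3.3 and matplotlib 3.10.9. The fits were tested on simulated data.

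Members and lists were chosen with earlier results of these data known. Values by array or line were written out for the 5 largest called rises and falls of each comparison, the 4 widest and narrowest ranges, and a fixed set, 33 members in all, and other members were named beside them. Alternatives changed the pseudocount (1 or 64), the scaling (values as deposited or median-centred), the filter (none or 50%) and the probe sets (their mean), used all 104 arrays, dropped the trend or the line block, and added array weights or a replicate block. Others kept only lines with both MNNG arrays, only TK6 and MT1, or left out arrays or lines. Each probe set by itself, covariation without line 7, the actin and GAPDH ends, and the steps between untreated replicates were added after seeing the data.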

Additional observations from a re-analysis of the deposited data

Results flagged for a closer look

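The responses of TK6 and MT1 differed in 13 members by limma's test of the difference itself (adjusted p below 0.05). TK6 minus MT1 was negative for CKS1B (-0.91), NEK2 (-0.90), MAD2L1 (-0.90), NUF2 (-0.89), NCAPH (-0.70), CCNA2 (-0.70), AURKB (-0.66) and BUB1 (-0.58), in log2 units. It was positive for NCAPG (0.86), CENPE (0.72), SMC4 (0.59), KIF4A (0.57) and BUB1B (0.40). MT1 enters with 1 MNNG array. Leaving out 1 array ended the calls of BUB1 (in 3 fits), SMC4 and CENPE (2 each), and MAD2L1 and BUB1B (1 each). Among panel lines, limma's F test of the difference in response passed for AURKB (adjusted p = 0.00321) and PTTG1 (adjusted p = 0.00352).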

How the results depend on the processing

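Counts of members called (higher, lower) depended most on scale and on the arrays kept, and the cause was not tested. The share of all genes called under each alternative is not given here, so these counts do not set the members apart from other genes. With arrays centred on their medians, the panel gave 0 higher, TK6 2 higher, MT1 0 and 0, TK6 minus MT1 2 and 0, untreated MT1 minus TK6 0 and 2, the MGMT slope 0 and 0, and response between lines 0. Centring turned CKS2 (-0.018), CCNB2 (-0.055), CKS1B (-0.058) and AURKA (-0.00848) in the panel, CCNB1 in MT1 (-0.083) and the MGMT slope of KIF20A (-0.022). On values as deposited, MT1 gave 0 and 0, TK6 minus MT1 1 higher, untreated MT1 minus TK6 1 higher, response between lines 1, and the MGMT slope 0 lower. With all 104 arrays the panel gave 14 and 25, response between lines 1, and 0 was called in each other comparison. There CDK1 (-1.96), CCNB1 (-1.17), CKS1B (-0.77), TOP2A (0.34), AURKA (-1.005), BUB1 (0.084) and NDC80 (-0.95) turned in the panel, AURKB (0.47), NEK2 (0.94) and NCAPH (0.22) in TK6 minus MT1, and KIF20A (-0.037) and NCAPH (-0.023) in the MGMT slope. The mean of all probe sets gave 19 lower in the panel, 0 and 3 in MT1, 3 higher in untreated MT1 minus TK6 and 0 lower with MGMT, and turned BIRC5 in the panel (0.13) and CCNB2 in TK6 (0.15). Each probe set by itself, chosen after seeing the data, gave 14 and 23 in the panel, 14 higher in TK6 and 4 lower in MT1.

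Without the line block the panel gave 0 and 4, and in the 8 lines with both MNNG arrays 5 and 6. The TK6 and MT1 arrays alone gave 0 and 0 in MT1, 2 higher in TK6 minus MT1 and 3 higher in untreated MT1 minus TK6. MT1 had 0 higher with no filter and with no trend, the MGMT slope 0 lower with no trend and with a pseudocount of 64, and 0 and 0 without lines 4 and 9. With the lowest 50% of genes left out, response between lines gave 4. Leaving out 1 replicate or line gave 0 to 10 higher and 2 to 14 lower in the panel, 0 to 0 higher and 0 to 1 lower in MT1, 3 to 5 higher in TK6 minus MT1, 3 to 6 higher in untreated MT1 minus TK6, 1 to 4 in response between lines, and 0 to 7 higher and 0 to 1 lower with MGMT. PLK1 in the panel was at -0.35 to 0.010 without 1 replicate number, above 0 without replicate 2. Both MNNG arrays were kept in 8 panel lines and TK6. There, deviations of same-numbered arrays correlated at -0.62 (line 14) to 0.14, above 0.1 in 2 of 9 lines. Numbers were therefore not taken as pairs. The other 11 lines could not be checked, and 9 of them set MNNG replicate 1 against both untreated arrays. With the replicate block, TK6 minus MT1 gave 3 higher, MT1 0 and 0, the panel 7 and 13, and TK6 8 and 17. Array medians of intensity, 16.0 (line 14, untreated replicate 2) to 64.4, limit dim members.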
